A study of Mus musculus with 4 samples.

Results

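Genes that make leukotrienes and prostaglandins, with the receptor for leukotriene B4, were compared between Ly6G+ bone marrow cells of *lal-/-* mice and those of *lal+/+* mice. The set was given as a list of 10 genes. Each was read from the probe set that names it alone, the brightest where there were several. A probe set was found for 9 of the 10 genes, of 19938 genes measured, and each of the 9 had 1 probe set. *Ptgs1*, which encodes the constitutive cyclooxygenase, was not analysed here. RNA was hybridized to 4 Affymetrix Mouse Gene 1.0 ST chips, 2 with RNA of *lal-/-* cells and 2 with RNA of *lal+/+* cells. All mice were 5 months old on an FVB/N background. *lal-/-* mice lack lysosomal acid lipase (LAL) in all tissues, not in marrow cells alone. The labels call the cells CD11b and Gr-1 positive MDSCs (myeloid-derived suppressive cells), whereas the methods describe magnetic selection with an antibody to Ly6G, which should remove most other cells, and a high purity of the Ly6G+ cells. Neither source says whether the 2 arrays of a genotype came from separate mice, so the p-values reflect the spread between arrays alone, and that spread may be a technical one.

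Leukotrienes and prostaglandins are short-lived lipid mediators made from arachidonic acid, which cytosolic phospholipase A2 cuts from membrane phospholipids. In the lipoxygenase branch, 5-lipoxygenase and its activating protein FLAP make leukotriene A4, which LTA4 hydrolase turns into leukotriene B4, a strong attractant of neutrophils, or LTC4 synthase joins to glutathione. In the cyclooxygenase branch, the cyclooxygenases make prostaglandin H2, from which terminal synthases form prostaglandin E2 and the other prostanoids. Neutrophils are known as a main source of leukotriene B4.

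Of the 9 genes, 5 were higher and 2 lower in *lal-/-* cells. The 5 higher genes were *Alox5*, *Alox5ap*, *Lta4h* and *Ltb4r1*, which make or sense leukotriene B4, and *Ptges*, which forms prostaglandin E2. The 2 lower genes were *Ptgs2*, the inducible cyclooxygenase, and *Alox15*, a lipoxygenase of another specificity. *Pla2g4a* and *Ltc4s* did not pass. A gene passed at an adjusted p under 0.05 from limma, with Benjamini-Hochberg adjustment over all probe sets that name 1 gene, and a fold of at least 2. Among all 19938 genes 7.56% passed as higher and 3.24% as lower. The median log2 difference of the 9 genes was 1.01, and that of all genes was 0.08. The 2 *lal-/-* arrays lay above the 2 *lal+/+* arrays for 6 of the 9 genes and below them for 2, against 41.6% and 24.1% of all genes.

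The promoters of genes with clear differences are shown to give their sequence context, and they are the 250 bases before the annotated start in RefSeq (GRCm38.p6). RefSeq sequence was matched by symbol for 8 of the 10 genes. *Alox5* (chr6:116461179-116461428, minus strand), *Lta4h* (chr10:93453146-93453395, plus strand) and *Ltb4r1* (chr14:55765712-55765961, plus strand) were higher in *lal-/-* cells, and *Ptgs2* (chr1:150099781-150100030, plus strand) was lower. Capitals mark the letters GGGCGG (GC box), GAGGAA (core of sites for PU.1, a myeloid transcription factor) and TTGCGCAA (a palindrome bound by C/EBP factors), on either strand. These motifs were chosen with the sequences and results known.
Alox5: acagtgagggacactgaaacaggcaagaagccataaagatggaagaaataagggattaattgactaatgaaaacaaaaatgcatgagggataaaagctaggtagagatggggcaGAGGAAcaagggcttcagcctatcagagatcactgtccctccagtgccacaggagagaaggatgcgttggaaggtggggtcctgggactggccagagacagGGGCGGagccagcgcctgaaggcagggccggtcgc
Lta4h: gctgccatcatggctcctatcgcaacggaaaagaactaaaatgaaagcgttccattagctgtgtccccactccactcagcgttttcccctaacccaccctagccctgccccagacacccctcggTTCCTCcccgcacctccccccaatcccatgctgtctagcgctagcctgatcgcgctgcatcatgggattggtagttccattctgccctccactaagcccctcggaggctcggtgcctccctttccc
Ltb4r1: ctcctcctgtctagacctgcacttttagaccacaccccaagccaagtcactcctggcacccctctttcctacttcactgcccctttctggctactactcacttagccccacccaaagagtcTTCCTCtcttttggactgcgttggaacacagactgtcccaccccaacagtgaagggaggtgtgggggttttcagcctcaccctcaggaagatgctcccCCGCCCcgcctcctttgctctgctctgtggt
Ptgs2: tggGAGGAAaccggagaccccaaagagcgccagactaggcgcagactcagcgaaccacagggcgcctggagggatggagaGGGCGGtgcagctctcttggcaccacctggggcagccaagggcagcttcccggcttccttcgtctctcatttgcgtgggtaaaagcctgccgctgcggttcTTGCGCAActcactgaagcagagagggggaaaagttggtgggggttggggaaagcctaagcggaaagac
GAGGAA stood in a promoter of 6 of the 8 genes (*Alox5*, *Lta4h*, *Ltb4r1*, *Ptgs1*, *Ptgs2* and *Ptges*), thus in promoters of genes that were higher as well as of one that was lower, and in 23.3% of the 32851 promoters of the same length. It lay 136 bases before the start in *Alox5*, 126 bases in *Lta4h*, 129 bases in *Ltb4r1* and 247 bases in *Ptgs2*, counted to its most distant base. GGGCGG stood in 4 of the 8 genes (*Alox5*, *Ltb4r1*, *Ptgs2* and *Ptges*) and in 32.7% of all promoters. TTGCGCAA stood in *Ptgs2* alone of the 8, 69 bases before the start, and in 0.164% of all promoters. TATAAA was searched as well and was found in 1 of the 8 genes, in the second promoter of *Pla2g4a*, and in 12.4% of all promoters. No match overlapped another. A match describes letters and is no evidence of binding.

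**Figure D1:**
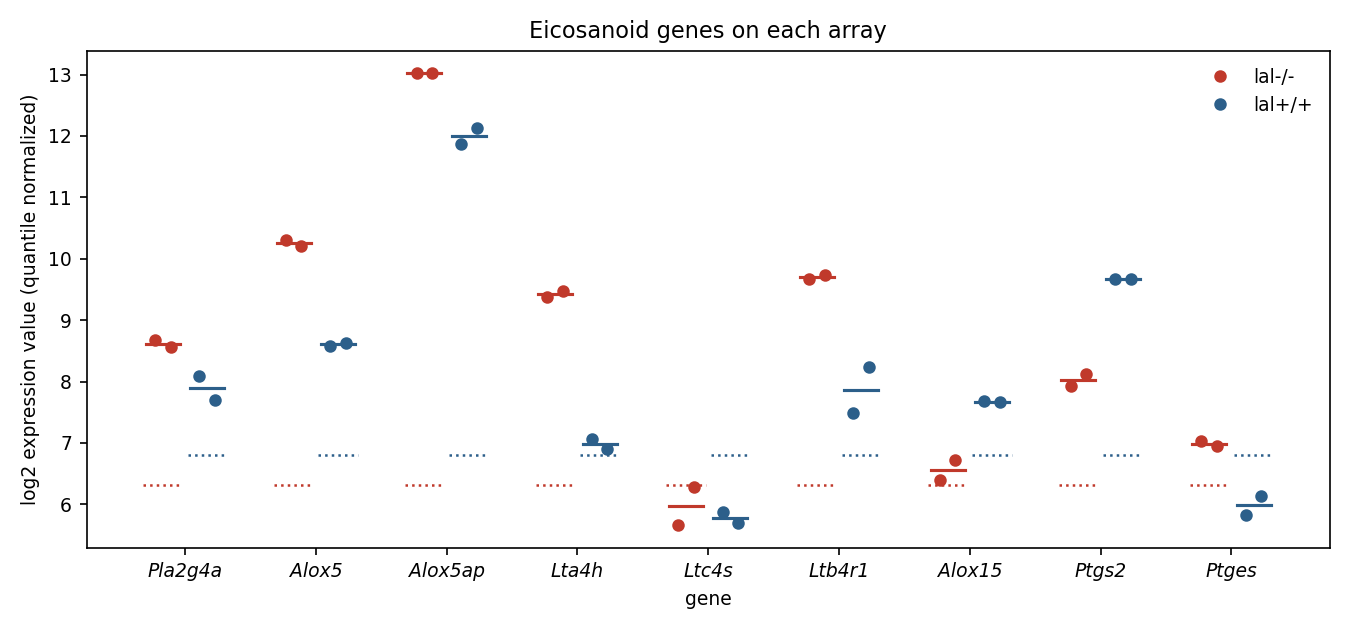
Log2 expression value (vertical axis, quantile normalized) of 9 genes of the pathway (horizontal axis), with *lal-/-* arrays as red points and *lal+/+* arrays as blue points, short bars for the genotype means, and a dotted line at the 95th percentile of olfactory receptor probe sets averaged over the 2 arrays of the genotype. The points of the genotypes overlap for *Ltc4s* alone, which lies below the dotted lines, and *Ptgs2* and *Alox15* are the 2 genes that lie lower in *lal-/-* cells.

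The arrays were checked first. *Lipa*, which encodes LAL, had log2 values of 7.37 and 7.49 on the *lal-/-* arrays, against 9.50 and 9.05 on the *lal+/+* arrays. Over probe sets the 2 *lal-/-* arrays correlated at 0.994, the 2 *lal+/+* arrays at 0.988 and arrays of different genotypes at 0.927 to 0.937, and no array stood apart. As RMA values carry no detection call, the 1035 probe sets that read olfactory receptor genes, silent outside few tissues, served as the silent level. Their 95th percentile was 6.32 and 6.31 on the *lal-/-* arrays, against 6.76 and 6.86 on the *lal+/+* arrays. Of all genes passing, 70.0% were higher in *lal-/-* cells, and this share was 84.9% when the arrays were given a common median and not quantile normalized. Lists of marker genes differed between the genotypes in these cells, and are given here for all results. Their counts stand beside 7.56% higher and 3.24% lower among all genes. Of 14 markers of the neutrophil lineage 9 were higher and 1 was lower, and their mean log2 level was 11.97 and 11.95 on the *lal-/-* arrays, against 10.67 and 10.63 on the *lal+/+* arrays. Of 13 markers of monocytes and macrophages 1 was higher (*F13a1*, 1.98) and 9 were lower, and the monocyte receptor gene *Ccr2* (0.83) did not pass, with mean levels of 6.87 and 6.88 on the *lal-/-* arrays, against 8.60 and 8.49 on the *lal+/+* arrays. *Mrc1*, *Spic*, *C1qb*, *C1qc* and *Ms4a7* lay below the silent level on both *lal-/-* arrays and above it on both *lal+/+* arrays. *Csf1r*, *Vcam1*, *Cd68*, *C1qa* and *Cx3cr1* lay above it on all 4 arrays, and *Adgre1* on 1 *lal-/-* array and both *lal+/+* arrays. *Ccr2* and *F13a1* lay above it on both *lal-/-* arrays and below it on both *lal+/+* arrays. Of 8 markers of B cells all 8 were lower, with mean levels of 6.01 and 5.90 on the *lal-/-* arrays, against 9.93 and 9.72 on the *lal+/+* arrays. On both *lal+/+* arrays all 8 lay above the silent level, at the 88.1th percentile of probe sets or higher. These levels are given beside the high purity that the methods state, which was not tested. In whole-sample RNA, fewer cells of a type and less RNA per cell cannot be told apart, and the part of these cells in the results below was not tested.

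*Lta4h* encodes LTA4 hydrolase, the enzyme that forms leukotriene B4, and had the largest difference of the 9 genes. It read 9.38 and 9.47 on the *lal-/-* arrays, against 7.06 and 6.90 on the *lal+/+* arrays. The genotypes were thus 2.32 apart at their nearest arrays, while the arrays of one genotype differed by 0.09 (*lal-/-*) and 0.16 (*lal+/+*). The log2 difference was 2.44 (standard error 0.13, limma adjusted p = 7.43e-05), which is 5.45-fold, and 100 of the 19938 genes had a larger one. The *lal+/+* arrays lay just above the silent level, by 0.29 on replicate 1 and 0.04 on replicate 2.

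*Alox5* encodes 5-lipoxygenase, which oxygenates arachidonic acid in the first step to all leukotrienes. Its values were 10.31 and 10.21 on the *lal-/-* arrays, against 8.59 and 8.63 on the *lal+/+* arrays. Both genotypes were tight, and the nearest arrays of the genotypes were 1.58 apart. This gave a log2 difference of 1.65 (standard error 0.12, limma adjusted p = 1.89e-04), a 3.14-fold higher signal. The size depended on the scaling, and the log2 difference was 2.25 with a common median of the arrays and 2.07 with the values as deposited.

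*Alox5ap* encodes FLAP, the membrane protein that presents arachidonic acid to 5-lipoxygenase. It read 13.02 on both *lal-/-* arrays, against 11.87 and 12.13 on the *lal+/+* arrays. The equal *lal-/-* values come from quantile normalization, which gave both arrays the value of the same rank, and the deposited values were 13.01 and 13.02. A log2 difference of 1.02 (standard error 0.14, limma adjusted p = 0.00176) lay just past the fold threshold, at 2.03-fold. Without *lal+/+* replicate 1 it was 0.89, which is under that threshold. *Alox5ap* lay at or above the 98.5th percentile of probe sets on all 4 arrays, where a difference can be compressed.

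*Ltb4r1* encodes BLT1, the high-affinity leukotriene B4 receptor of neutrophils. It read 9.67 and 9.74 on the *lal-/-* arrays, against 7.49 and 8.23 on the *lal+/+* arrays. The *lal+/+* arrays were 0.74 apart, the widest spread within a genotype among the 9 genes, and even the nearer of them lay 1.44 below the *lal-/-* arrays. On the log2 scale the difference was 1.84 (standard error 0.23, limma adjusted p = 0.00140), a 3.59-fold higher signal. The second leukotriene B4 receptor gene, *Ltb4r2*, was not analysed here.

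Beside *Lta4h*, *Alox5*, *Alox5ap* and *Ltb4r1*, 9 of the 14 markers of the neutrophil lineage were higher. *Csf3r*, the receptor gene for granulocyte colony-stimulating factor, was lower (-1.91). *Ly6g*, the antigen of the selection, had a log2 difference of 2.88 and *Mpo*, of primary granules, one of 3.75. *Itgam* (CD11b) had 1.19. *S100a8* (0.05), *Cxcr2* (0.03), *S100a9* (0.20) and *Ngp* (0.76) did not pass. On all 4 arrays *S100a8*, *S100a9* and *Cxcr2* lay at or above the 99.5th percentile of probe sets, and *Ngp* at or above the 99.2th. A difference can be compressed there. The part of the share or stage of neutrophils in the preparations was not tested.

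**Figure D2:**
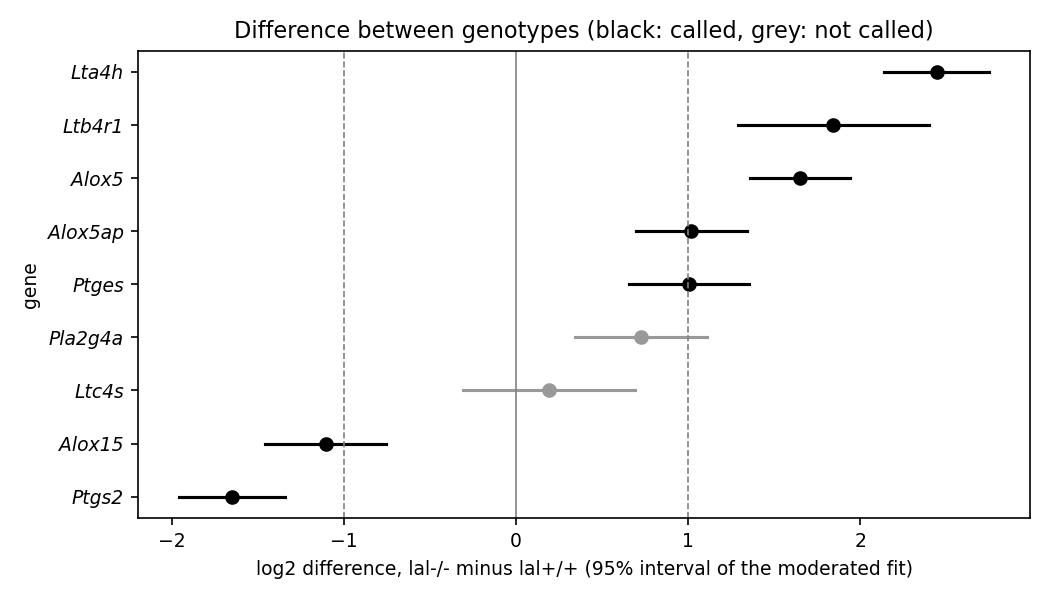
Log2 difference between *lal-/-* and *lal+/+* cells (horizontal axis) for each of 9 genes (vertical axis), with its 95% interval from the moderated fit and dashed lines at the fold threshold. *Lta4h* (2.44), *Ltb4r1* (1.84) and *Alox5* (1.65) lie past the threshold with their whole intervals, as does *Ptgs2* (-1.65) on the lower side, whereas the intervals of *Alox5ap*, *Ptges*, *Alox15* and *Pla2g4a* cross it.

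*Ltc4s* encodes LTC4 synthase, which starts the cysteinyl leukotrienes by joining glutathione to leukotriene A4. It read 5.66 and 6.28 on the *lal-/-* arrays, against 5.87 and 5.69 on the *lal+/+* arrays. The genotypes overlapped, and all 4 values lay below the silent level. The log2 difference was 0.19 (95% interval -0.31 to 0.69, limma adjusted p = 0.543), and its sign turned to -0.12 without *lal-/-* replicate 2. A change of *Ltc4s* cannot be judged from a probe set at this level.

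Other enzymes that can conjugate glutathione to leukotriene A4 or belong to the same membrane protein family as LTC4 synthase and FLAP were higher. *Mgst2*, whose product has LTC4 synthase activity, read 11.26 and 11.31 on the *lal-/-* arrays, against 7.45 and 7.47 on the *lal+/+* arrays, a log2 difference of 3.83 (standard error 0.12, limma adjusted p = 2.13e-05). *Mgst1*, a microsomal glutathione transferase of detoxification, rose by 2.25 and *Mgst3* by 1.06 on the log2 scale. *Mgst3* lay below the silent level on both *lal+/+* arrays, and its difference was under the fold threshold with the values as deposited (0.918) and without *lal+/+* replicate 2 (0.955). *Cyp4f18*, a cytochrome P450 known in mice to inactivate leukotriene B4 by hydroxylation, rose by 1.22. Of 12 other genes of leukotriene conversion, 4 were higher and 8 did not pass, against 7.56% higher and 3.24% lower among all genes.

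Among the lipoxygenases, *Alox15*, which encodes the leukocyte-type 12/15-lipoxygenase of mice, was lower in *lal-/-* cells. It read 6.40 and 6.73 on the *lal-/-* arrays, against 7.68 and 7.66 on the *lal+/+* arrays, so that the nearest arrays of the genotypes were 0.93 apart. The *lal-/-* values lay above the silent level by 0.08 on replicate 1 and 0.42 on replicate 2. The log2 difference was -1.11 (standard error 0.15, limma adjusted p = 0.00174), a 2.15-fold lower signal. It missed the fold threshold with a common median (-0.91) and without *lal-/-* replicate 1 (-0.94). In mice *Alox15* is known from resident macrophages and eosinophils. Of the 13 markers of monocytes and macrophages 9 were lower in the same cells, as given above, and of 6 eosinophil markers *Prg2* was higher (1.44), *Ccr3* lower (-3.89) and 4 did not pass, with mean levels of 6.99 and 7.0 on the *lal-/-* arrays, against 7.54 and 7.46 on the *lal+/+* arrays. Their part in the lower *Alox15* signal was not tested.

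*Alox12* (0.09) and *Alox8* (0.30), the platelet-type 12-lipoxygenase and a mouse 8-lipoxygenase, did not pass and lay below the silent level on all 4 arrays. The sign of *Alox12* turned with the values as deposited (-0.17). *Cotl1*, whose product coactosin-like protein binds 5-lipoxygenase, was higher by 1.76 (standard error 0.15). Of 6 other genes of the lipoxygenase list it was the 1 that passed, and 5 of the 6 lay below the silent level on all 4 arrays. Among all 19938 genes 7.56% passed as higher and 3.24% as lower, and 8863 lay below the silent level on all 4 arrays.

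*Pla2g4a* encodes cytosolic phospholipase A2, which releases arachidonic acid for both branches. It read 8.68 and 8.56 on the *lal-/-* arrays, against 8.09 and 7.70 on the *lal+/+* arrays. The *lal-/-* arrays were the higher, but the nearest arrays of the genotypes were 0.47 apart while the *lal+/+* arrays differed by 0.39. The log2 difference was 0.73 (95% interval 0.34 to 1.11, limma adjusted p = 0.0146), which is 1.66-fold and under the fold threshold. It was 1.19 with a common median and 1.01 with the values as deposited, and passed in both.

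Among all genes 7.56% were higher and 3.24% lower. Of 16 other genes of phospholipases and arachidonate handling, 1 was higher, 2 were lower and 13 did not pass. The count of higher genes was 4 with a common median, when *Mboat7* (1.17) and *Lpcat3* (1.105), acyltransferases that put arachidonic acid back into phospholipids, and *Plaa* (1.01) passed too. It was 2 without *lal-/-* replicate 2 and without *lal+/+* replicate 2, when *Mboat7* passed (1.08 and 1.24). With quantile normalization *Mboat7* lay just under the fold threshold (0.997), with both *lal+/+* arrays below the silent level. *Mgll*, a lipase that frees arachidonic acid from the endocannabinoid 2-arachidonoylglycerol, had a log2 difference of 2.02 (standard error 0.17, limma adjusted p = 2.99e-04), with both *lal+/+* arrays below the silent level. *Pla2g7*, which inactivates platelet-activating factor, had one of -1.25, and *Plaat3*, a phospholipase of fat cells and other tissues, one of -1.30. *Pla2g7* missed the fold threshold with a common median (-0.75) and with the values as deposited (-0.93). *Pla2g6*, a calcium-independent phospholipase A2, read below the silent level on all 4 arrays, with a log2 difference of 0.15 that turned to -0.046 with the values as deposited.

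In the cyclooxygenase branch the inducible enzyme and the inducible prostaglandin E2 synthase moved in opposite directions. *Ptgs2*, which encodes cyclooxygenase 2, read 7.92 and 8.12 on the *lal-/-* arrays, against 9.68 and 9.67 on the *lal+/+* arrays. The genotypes were 1.55 apart at their nearest arrays, with spreads of 0.20 (*lal-/-*) and 0.0027 (*lal+/+*). The log2 difference was -1.65 (standard error 0.13, limma adjusted p = 2.18e-04), a 3.14-fold lower signal, and 222 of the 19938 genes had a lower one. With a common median it was -1.12, which still passed. Monocytes, macrophages and activated neutrophils are known sources of *Ptgs2*. Of the 13 markers of monocytes and macrophages given above 9 were lower in the same arrays, while the monocyte marker *F13a1* was higher. Their part in the lower *Ptgs2* signal was not tested.

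*Ptges* encodes the microsomal prostaglandin E synthase that is induced together with cyclooxygenase 2 in inflammation. It read 7.04 and 6.95 on the *lal-/-* arrays, against 5.83 and 6.14 on the *lal+/+* arrays. Both *lal+/+* arrays lay below the silent level and both *lal-/-* arrays above it. Its log2 difference was 1.01 (standard error 0.15, limma adjusted p = 0.00253), a 2.01-fold higher signal at the edge of the fold threshold. It fell under the threshold with the values as deposited (0.89), without *lal-/-* replicate 1 (0.96) and without *lal+/+* replicate 1 (0.85).

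Of 8 other genes of this branch, 1 was lower, against 3.24% of all genes, and 7 did not pass. The lower one was *Prxl2b*, a synthase of prostamide and prostaglandin F, with values of 6.21 and 6.43 on the *lal-/-* arrays, against 8.0 and 8.25 on the *lal+/+* arrays and a log2 difference of -1.81 (standard error 0.15, limma adjusted p = 2.58e-04). The constitutive prostaglandin E synthases *Ptges2* (0.59) and *Ptges3* (-0.74) did not reach a fold of 2, nor did the thromboxane synthase *Tbxas1* (0.87) and the prostaglandin D synthases *Hpgds* (-0.72) and *Ptgds* (0.06). *Tbxas1* passed with a common median (1.01) and without *lal+/+* replicate 1 (1.22), and *Ptgds* turned to -0.035 with the values as deposited.

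The largest measured decrease of the pathway was in the breakdown of prostaglandins. *Hpgd* encodes 15-hydroxyprostaglandin dehydrogenase, which starts the inactivation of prostaglandin E2. It read 6.65 and 6.55 on the *lal-/-* arrays, against 9.82 and 9.79 on the *lal+/+* arrays, a log2 difference of -3.20 (standard error 0.12, limma adjusted p = 3.01e-05). The *lal-/-* arrays lay near the silent level, 0.33 and 0.25 above it. *Ptgr1* (1.21) and *Ptgr2* (1.06), reductases of the later steps, were higher, and *Ptgr1* also acts on leukotriene B4. *Ptgr2* missed the fold threshold without *lal-/-* replicate 2 (0.98) and without *lal+/+* replicate 2 (0.86). Of 7 genes of prostanoid transport and inactivation, 2 were higher, 1 was lower and 4 did not pass. The shares of all genes were 7.56% higher and 3.24% lower. *Hpgd* is known from macrophages among other cells, and the part of the 9 lower markers of monocytes and macrophages in its decrease was not tested. In the epoxide branch 1 of 5 genes was lower, the microsomal epoxide hydrolase *Ephx1* (-1.83), and 4 of the 5 lay below the silent level on all 4 arrays.

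Of 14 other receptor genes 0 were called at these thresholds by limma, against 7.56% higher and 3.24% lower among all genes. An ordinary linear model called 0 of all 19938 genes, so its count of 0 for the 14 says nothing about them. An unadjusted limma p under 0.05 was found for 5 of the 14, against 8085 of all 19938 genes. Below the silent level on all 4 arrays lay 7 of the 14, against 8863 of all genes. The prostaglandin E2 receptors *Ptger4* (0.11), *Ptger2* (0.34) and *Ptger1* (0.88, adjusted p = 0.00748) did not pass. *Ptger1* passed with a common median (1.12) and without *lal+/+* replicate 1 (1.08). The prostacyclin receptor *Ptgir* (0.86, adjusted p = 0.00267) and *Gpr31b* (-0.65, adjusted p = 0.0260) had an adjusted p under 0.05 but not a fold of 2. *Cysltr1* (-0.20), a receptor of the cysteinyl leukotrienes, and *Ptgdr2* (-0.39), a prostaglandin D2 receptor, lay below the silent level on all arrays. Over the whole pathway outside the 9 genes, 8 of 68 measured genes were higher, 5 were lower and 55 did not pass, with a median log2 difference of 0.08, against 7.56% higher and 3.24% lower among all genes.

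**Figure D3:**
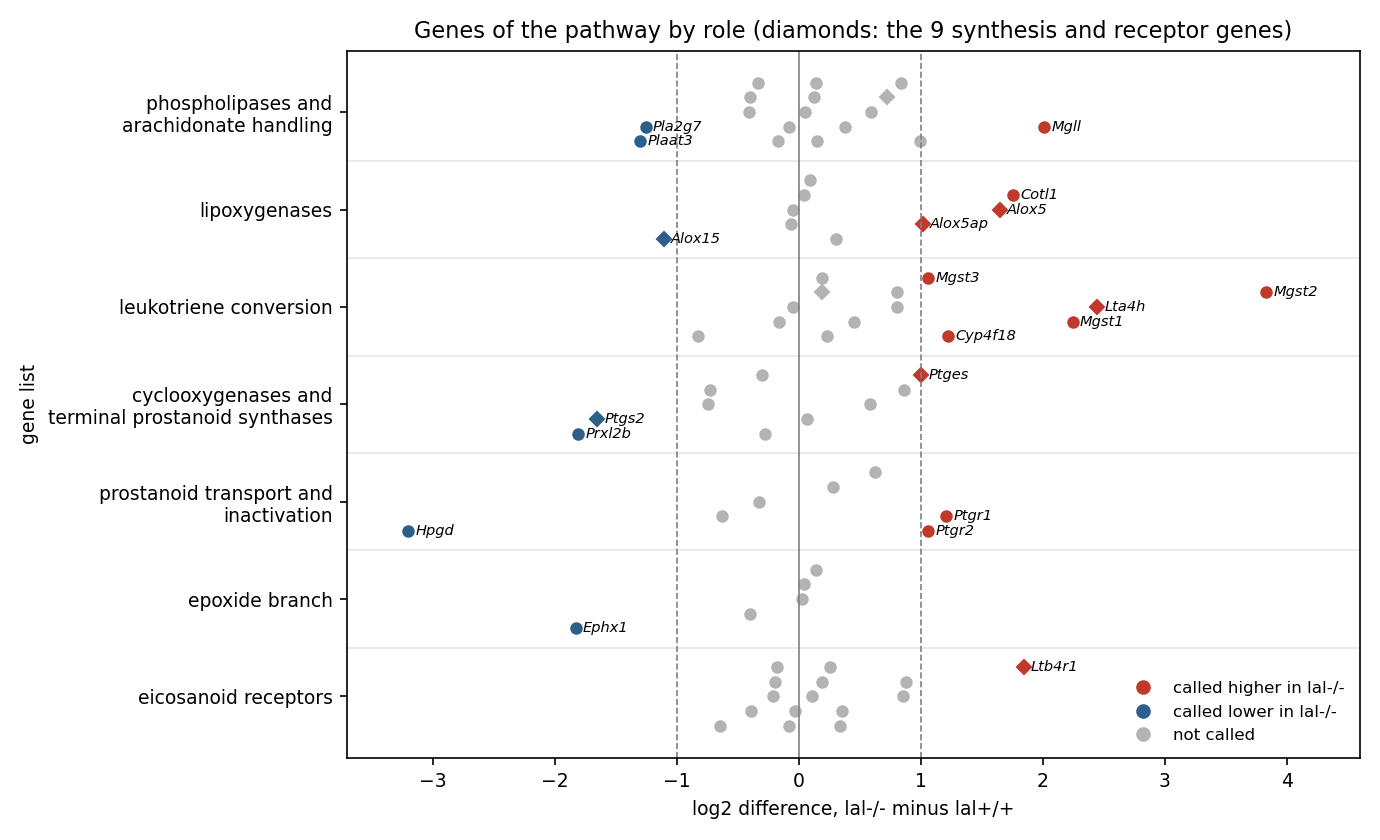
Log2 difference between *lal-/-* and *lal+/+* cells (horizontal axis) of each measured gene of the pathway, in rows by role, with red for genes higher in *lal-/-* cells, blue for genes lower, grey for genes that did not pass, and diamonds for the 9 synthesis and receptor genes. *Mgst2* (3.83) lies farthest to the right and *Hpgd* (-3.20) farthest to the left, and in the row of receptors *Ltb4r1* is the 1 colored point.

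4 further marker lists were compared. Among all 19938 genes 7.56% were higher and 3.24% lower, and 8863 lay below the silent level on all arrays. Of 10 markers of basophils and mast cells, 2 were higher (*Mcpt8*, 1.53, and *Kit*, 1.23), 8 did not pass, 6 lay below the silent level on all arrays, and the mean levels were 6.57 and 6.55 on the *lal-/-* arrays, against 6.05 and 6.13 on the *lal+/+* arrays. Of 7 markers of megakaryocytes and platelets 2 were higher (*Itgb3*, 1.54, and *Ppbp*, 1.22) and 5 did not pass, with mean levels of 7.20 and 7.06 on the *lal-/-* arrays, against 6.66 and 6.74 on the *lal+/+* arrays. Of 7 T cell markers 1 was higher (*Cd3d*, 2.42), 3 were lower (*Cd2*, -4.40, *Cd3g*, -2.01, and *Cd3e*, -1.28) and 3 did not pass. The mean levels of these markers were 7.21 and 7.14 on the *lal-/-* arrays, against 8.13 and 8.13 on the *lal+/+* arrays. *Cd3d*, which enters these means, read 12.74 and 12.72 on the *lal-/-* arrays, against 10.37 and 10.25 on the *lal+/+* arrays. Of 5 erythroid markers 0 passed in either direction by limma. An unadjusted limma p under 0.05 was found for 2 of the 5, against 8085 of all 19938 genes. Their mean levels were 7.60 and 7.47 on the *lal-/-* arrays, against 7.52 and 7.48 on the *lal+/+* arrays.

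The directions of the 8 genes other than *Ltc4s* held in every scaling. With an array left out they could not turn, as the arrays of the genotypes did not overlap for these genes. The calls rested on variances moderated across genes. An ordinary linear model for each probe set called 0 of the 9 genes, as it called 0 of all 19938 genes. Its adjusted p was 0.0549 to 0.152 for the 7 that passed with limma. In that model 7 of the 9 had an unadjusted p under 0.05, against 5691 of all 19938 genes. An exact two-sided permutation test of 2 arrays against 2 could not go below p = 0.333.

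**Figure D4:**
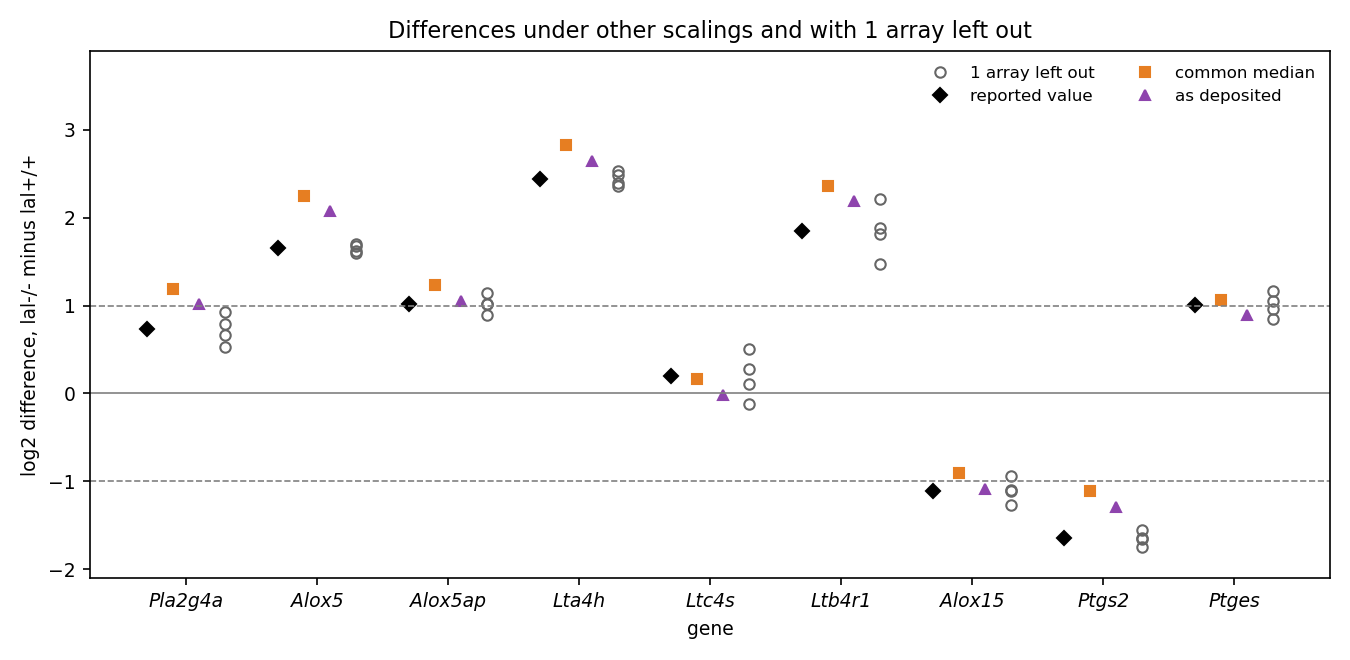
Log2 difference between *lal-/-* and *lal+/+* cells (vertical axis) of 9 genes (horizontal axis) as reported (black diamonds), with a common median of the arrays (orange squares), with the values as deposited (purple triangles) and with each of the 4 arrays left out in turn (open circles), with dashed lines at the fold threshold. *Alox5*, *Lta4h*, *Ltb4r1* and *Ptgs2* stay past the threshold in all of these, *Alox5ap*, *Ptges* and *Alox15* cross it in some, and *Ltc4s* lies around 0.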

How the data were processed

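RNA of Ly6G+ bone marrow cells was read on 4 arrays, 2 for each genotype. The deposited values are on the log2 scale, and the authors obtained them by RMA with Partek Genomics Suite 6.5. The labels also name GCOS 1.1. RMA brings arrays to a common scale, yet the medians of the deposited columns ranged over 0.208, more than a limit of 0.1, so the arrays were quantile normalized. This can compress or shift differences where many genes move one way. The table holds 35557 probe sets. The gene table used gives 1 gene for 21789 of them and several for 1621, and does not list 12147. Symbols were updated through RefSeq for 21766 probe sets and kept for 23. Differences were tested with limma 3.58.1 in R 4.3.3 over the probe sets that name 1 gene (4.83 prior and 2 residual degrees of freedom). Intervals and standard errors are those of this fit. The number of arrays limits the precision. The methods' ANOVA with tissue and genotype terms could be fitted here for genotype alone, as bone marrow was the one tissue.

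The members, gene lists and alternatives were chosen with earlier results of these data known. Named were all members, up to 4 passing genes in each direction of every pathway list, up to 3 of each marker list, fixed isoforms and receptors, and *Lipa* and *Ly6g*. *Cxcr2*, *S100a8*, *S100a9*, *Ngp*, *Itgam*, *Ccr2*, *Mboat7*, *Lpcat3*, *Plaa*, *Ptger1*, *Ptgir* and *Gpr31b* were named after their values were seen. So were the markers of monocytes and macrophages that were set against the silent level. Alternatives were a common median, the values as deposited, a filter at the median level, adjustment over every probe set, robust variances with an intensity trend, unmoderated variances, replicate blocks, other thresholds, averaging over the probe sets of each gene, and each array left out. The procedure was tested on simulated data. Figures were drawn with matplotlib 3.10.9.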

Additional observations from a re-analysis of the deposited data

How the results depend on the processing

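Of 134 alternative values of the 9 genes, 116 kept their direction and call, 13 lost the call, 3 gained it and 2 turned sign. Both turns were of *Ltc4s* (-0.021 with the values as deposited and -0.12 without *lal-/-* replicate 2, in a range of -0.12 to 0.503 with 1 array left out). Settings other than a scaling or an array left out do not alter these log2 differences, so the direction could not turn there. Of 459 values of 31 other genes of the pathway, 419 kept direction and call, 19 lost the call, 18 gained it and 3 turned sign. These 3 turned with the values as deposited (*Alox12* -0.167, *Pla2g6* -0.046 and *Ptgds* -0.035). The median log2 difference of all genes was 0.124 with a common median and -0.055 with the values as deposited, against 0.085 with quantile normalization. With a common median 2619 genes were higher, against 1508 with quantile normalization, 1 of the 9 genes was lower and 14 other pathway genes were higher. With no fold threshold 3938 genes were higher and 1963 lower, against 646 lower at a fold of 2, and 16 other pathway genes were higher and 10 lower. The ordinary linear model, with 2 residual degrees of freedom, called 0 genes in either direction in the whole table, among the 9 genes and in the rest of the pathway, while 5691 genes had an unadjusted p under 0.05. With 1 array left out the counts were 1353 to 1705 higher and 654 to 695 lower over all genes, 3 to 5 higher and 1 to 2 lower among the 9 genes, and 7 to 10 higher and 5 to 6 lower in the rest of the pathway. The lone array of a genotype was then assumed to vary like the other genotype. The low counts were 3 higher without *lal+/+* replicate 1 and 1 lower without *lal-/-* replicate 1. Replicate numbers are shared by the genotypes, but nothing states that they pair the arrays, and the deviations of same-numbered arrays correlated at -0.176 over probe sets. Over all genes the counts were 1508 higher and 646 lower with the replicate number as a block. They were 5 and 2 among the 9 genes, and 8 and 5 in the rest of the pathway. A crossed pairing, chosen after seeing the data, gave 1508, 646, 5, 2, 8 and 5 too. With 2 arrays of each genotype a block of either kind leaves every log2 difference unchanged. These equal counts therefore do not show whether pairing matters. *Ltc4s* could not be tested with the filter at the median level. Genes near the silent level, among them *Ltc4s*, *Ptges* in *lal+/+* cells and *Alox15* in *lal-/-* cells, have differences that can be compressed.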
